A study of Mus musculus with 6 samples.

Results

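The genes described here are 8 regulators that act on hypoxia-inducible factor (HIF) or are switched on by it and restrain transcription in turn: Cited1, Cited2, Cited4, Bhlhe40, Bhlhe41, Mxi1, Ep300 and Crebbp. Every probe set whose platform annotation gave 1 gene symbol among these names was taken, which gave 15 probe sets of 45037, and the 8 genes stand among 18193 genes with a probe set. The genes were chosen by name with the genotype comparison of these same arrays already known, so their knockout and control values are a description, and none of the differences below is a test of the genes as a group.

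The arrays measured RNA of isolated pancreatic islets, the endocrine clusters of the pancreas that consist mostly of insulin-secreting beta cells. The VhlhKO group has 3 arrays and the control group has 3 arrays. The labels describe a mouse model in which Cre driven by the RIP2 (rat insulin) promoter deletes a floxed Vhlh gene, written Vhlh(fl/fl), in beta cells. Which of these alleles the controls carried is not given in the sources used here, and the other cells of a knockout islet keep the gene. In both genotypes array 03 came from mice of 18 weeks, array 02 from mice of 20 weeks and array 01 from mice of 26 weeks, recorded as male, female and male. Each array read 1 batch of islets, and how many mice a batch came from is not stated in those sources.

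Values are MAS5 signals, the linear brightness of a probe set as the authors deposited it, with every array scaled to the same trimmed mean. The median signal of an array was 101.9 to 122.7 units. A probe set that exceeded its array's median on fewer than 3 arrays is called too dim to test. Vhl itself had signals of 343.6, 358.3 and 467.4 in VhlhKO islets, against 456.6, 638.7 and 838.8 in control islets. The groups of Vhl overlapped, with the knockout lower in all 3 same-numbered pairs. Defining beta-cell genes were bright in both genotypes: 8 of the 10 listed had a probe set, with a summed signal of 88939 to 161644 in VhlhKO islets and 110377 to 156039 in control islets. The preparations also held a strong but uneven signal of acinar cell markers. Over the 9 of 12 listed with a probe set it summed to 8441 to 436846 in VhlhKO islets and 79353 to 351510 in control islets.

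As background, the von Hippel-Lindau protein marks the alpha subunits of HIF for destruction when oxygen is present, so its loss leaves HIF in place. HIF switches on genes with help from the related acetyltransferases p300 (Ep300) and CBP (Crebbp), which bind the alpha subunit's activation domain. CITED proteins bind the same coactivators, and CITED2 competes with HIF for them. The repressors BHLHE40 and BHLHE41, also called DEC1 and DEC2, bind E-boxes and belong to the outer loop of the circadian clock. MXI1 pairs with MAX and opposes MYC at E-boxes, and it is a known HIF target in VHL-deficient human kidney cancer cells.

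Promoter windows from RefSeq (GRCm38.p6), each covering 250 bases before to 50 after an annotated start, were found for 7 of the 8 genes, 11 windows in all. There was none for Bhlhe40 in the table used. They were searched on both strands for ACGTG and GCGTG, the core to which HIF binds, and for CACGTG, the E-box, which contains ACGTG on either strand. At least 1 of the 2 HIF cores stood in 7 of the 11 windows, and in 43.8% of all 32851 windows of the same length. The E-box stood in 2 of the 11, against 7.15% of all windows. The windows below belong to Cited2 and to the 3 genes with a window whose brightest probe set did not overlap between genotypes (Mxi1, Cited4 and Bhlhe41, the last too dim to test), and the capitals mark every match. The Mxi1 window (chr19:53329163-53329462, plus strand) is the middle of 3 annotated starts and has 1 ACGTG. That of Cited4 (chr4:120666313-120666612, plus strand) has 1 GCGTG. The Bhlhe41 window (chr6:145865371-145865670, minus strand) has 1 E-box and 2 GCGTG. That of Cited2 (chr10:17722978-17723277, plus strand) has 1 E-box.
Mxi1: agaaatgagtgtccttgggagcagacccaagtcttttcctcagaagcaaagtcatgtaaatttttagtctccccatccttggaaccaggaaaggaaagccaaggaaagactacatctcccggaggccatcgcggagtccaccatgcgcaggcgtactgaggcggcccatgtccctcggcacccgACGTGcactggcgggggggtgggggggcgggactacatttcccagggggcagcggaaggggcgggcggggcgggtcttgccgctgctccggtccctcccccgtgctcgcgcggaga
Cited4: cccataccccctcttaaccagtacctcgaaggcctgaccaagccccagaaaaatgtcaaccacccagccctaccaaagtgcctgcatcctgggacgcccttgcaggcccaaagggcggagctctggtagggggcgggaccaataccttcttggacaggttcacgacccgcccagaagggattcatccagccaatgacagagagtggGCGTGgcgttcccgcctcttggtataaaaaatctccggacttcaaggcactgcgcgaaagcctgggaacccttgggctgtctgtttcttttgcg
Bhlhe41: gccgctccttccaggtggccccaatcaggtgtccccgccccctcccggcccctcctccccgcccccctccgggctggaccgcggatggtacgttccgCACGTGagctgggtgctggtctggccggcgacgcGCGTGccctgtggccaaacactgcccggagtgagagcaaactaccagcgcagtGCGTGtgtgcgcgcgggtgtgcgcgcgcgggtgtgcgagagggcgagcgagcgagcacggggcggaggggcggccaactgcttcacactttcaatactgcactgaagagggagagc
Cited2: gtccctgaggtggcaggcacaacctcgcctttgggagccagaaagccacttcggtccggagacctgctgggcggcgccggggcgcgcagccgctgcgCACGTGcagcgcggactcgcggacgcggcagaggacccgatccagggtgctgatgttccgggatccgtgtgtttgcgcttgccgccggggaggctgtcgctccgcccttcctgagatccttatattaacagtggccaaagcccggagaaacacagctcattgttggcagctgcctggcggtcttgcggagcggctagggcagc

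The E-boxes of Cited2 and Bhlhe41 begin at the same distance, base -153 from the annotated start. Neither Ep300 nor Crebbp had any of the 3 motifs in its single window. The third Mxi1 window had an ACGTG that begins at base -25, and the first had none. A match is a string of letters and not evidence of binding.

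**Figure D1:**
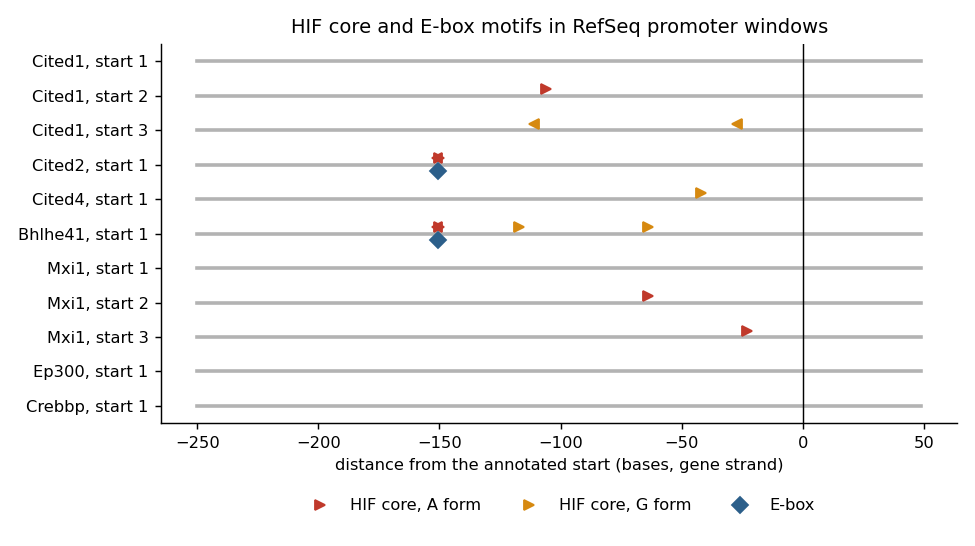
Positions of the HIF core (ACGTG in red, GCGTG in orange, arrowheads pointing along the strand) and of the E-box (CACGTG, blue diamonds) in the 11 RefSeq promoter windows, with distance from the annotated start in bases on the x axis and 1 line per window. Matches fall in 7 windows, and each E-box lies over 2 ACGTG matches, 1 on each strand.

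Among the 8 genes, Mxi1 and Bhlhe40 were higher in VhlhKO islets and Cited4 was lower, each with no overlap between the 3 arrays of a genotype. Cited2, Ep300 and Crebbp, read from their brightest probe sets, overlapped between genotypes. Cited1 and Bhlhe41 were too dim to be tested. To be tested, a gene's brightest probe set had to exceed the array median on 3 or more of the 6 arrays, which it did for 6 of the 8 genes. Cited4 passed that filter through its control arrays alone, so counts over the 6 genes partly follow from the filter.

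Limma, fitted over 11609 genes, called 0 of the 6 at an adjusted p under 0.05, and 0.0172% of all genes tested. With the array number as a block it again called 0 of the 6, against 0.0517%. At an unadjusted p under 0.05 it listed 3 of the 6 (Cited4, Bhlhe40 and Mxi1), against 2.58% of all genes tested. The block listed the same 3 genes, against 5.03%. Some other settings listed fewer: 1 with arrays centred on their medians, 1 of 5 with probe sets averaged per gene, and 0 to 2 with 1 array left out, the 0 being without control 03. These 3 were also the genes without overlap, a pattern found in 6.75% of all genes tested: 3.98% with the knockout higher, where Bhlhe40 and Mxi1 belong, and 2.77% with the knockout lower, where Cited4 belongs. The genes were picked with this contrast known, so nothing is read from these shares. The median log2 difference of the 6 genes was 0.17, beside -0.00028 over all genes tested.

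**Figure D2:**
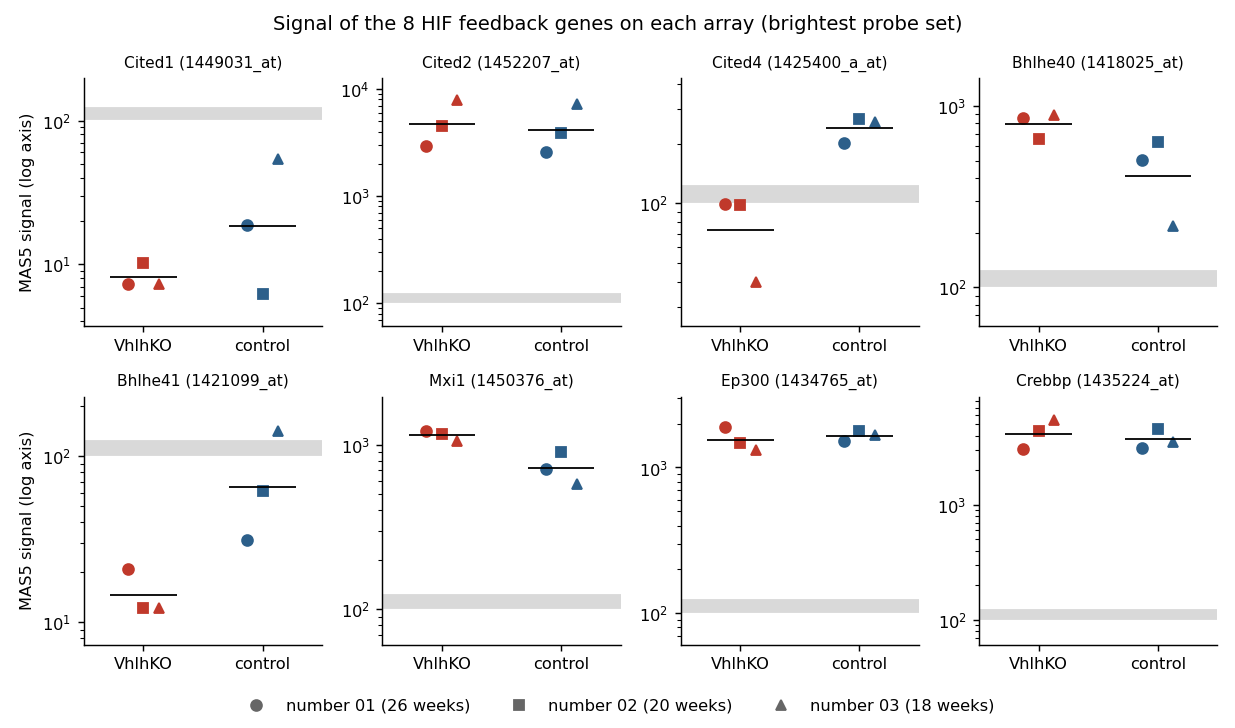
MAS5 signal (log axis, arbitrary units) of the brightest probe set of each of the 8 genes on the 3 VhlhKO arrays (red, left) and the 3 control arrays (blue, right), with the marker shape giving the array number, a black line at the geometric mean and a grey band over the range of array medians. Mxi1 and Bhlhe40 lie higher and Cited4 lower in VhlhKO, while Cited1 stays under the band on all 6 arrays and Bhlhe41 on all but control 03.

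Mxi1, the MYC antagonist, was higher in VhlhKO islets in all 3 pairs. Its brighter probe set, 1450376_at, had signals of 1220.2, 1160.9 and 1047 in VhlhKO islets, against 707.5, 901.7 and 581 in control islets. All 3 knockout arrays lay above the highest control, and the knockout arrays lay closer together than the control arrays. The mean log2 signal was 10.16 ± 0.11 in VhlhKO islets and 9.49 ± 0.32 in control islets (SD, n = 3 each). On the log2 scale the genotypes differed by 0.67 (SE 0.28, 95% interval 0.05 to 1.29), which is 1.59-fold. Within the pairs numbered 01, 02 and 03 it was 0.79, 0.36 and 0.85. Its second probe set, 1425732_a_at, was far dimmer and did not separate the genotypes. It had signals of 68.8, 230.7 and 115.5 in VhlhKO islets, against 129, 117.5 and 78.8 in control islets. That gave a log2 difference of 0.21 (SE 0.56). Averaging both probe sets left Mxi1 at 0.44.

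Bhlhe40, the E-box repressor DEC1, has 1 probe set, 1418025_at. Its signals were 860.6, 657.5 and 886.1 in VhlhKO islets, against 502.9, 632.6 and 217.2 in control islets. The lowest knockout array and the highest control array, both numbered 02, were nearly equal, so the separation was narrow. The mean log2 signal was 9.63 ± 0.24 in VhlhKO islets and 8.68 ± 0.81 in control islets (SD, n = 3 each). VhlhKO islets exceeded control islets by 0.95 on the log2 scale (SE 0.41, 95% interval 0.04 to 1.87), or 1.94-fold. The pairs were uneven, at 0.78, 0.06 and 2.03 for numbers 01, 02 and 03. Without control 03, the array with the low signal, the log2 difference was 0.49. With each array centred on its own median the groups overlapped.

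Cited4 encodes a coactivator-binding protein that, in human cells, can block HIF-1 activity. It differed most among the 6 genes tested, and downward. Its brighter probe set, 1425400_a_at, had signals of 99.7, 97.7 and 39.9 in VhlhKO islets, against 201.7, 267.6 and 258.1 in control islets. Every knockout signal lay under the median of its array and every control signal lay above, so the fold rests on dim knockout values. The mean log2 signal was 6.19 ± 0.76 in VhlhKO islets and 7.91 ± 0.22 in control islets (SD, n = 3 each). The log2 difference was -1.72 (SE 0.50, 95% interval -2.85 to -0.60), so that VhlhKO islets held 30.3% of the control signal. The pairs numbered 01, 02 and 03 differed by -1.02, -1.45 and -2.69. Adding 50 signal units before the logarithm reduced the log2 difference to -1.21, and without knockout 03 it was -1.29. The second probe set, 1438261_at, was under the median on all 6 arrays. Its signals of 30.4, 60 and 8.6 in VhlhKO islets overlapped those of 13.2, 23.4 and 80 in control islets.

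Cited2, the family member that competes with HIF-1 alpha for p300 and CBP, is a HIF target in other cells. It was bright, and it differed far more between arrays of 1 genotype than between genotypes. The brighter probe set, 1452207_at, had signals of 2952.8, 4527 and 7831.6 on VhlhKO arrays 01, 02 and 03, against 2589.8, 3898.3 and 7178.1 on control arrays 01, 02 and 03. The knockout array was slightly above the control array in each pair, by log2 differences of 0.19, 0.22 and 0.13, while the groups as a whole overlapped. Over the 3 arrays each, the log2 difference was 0.18 (SE 0.45, 95% interval -0.83 to 1.19). With the array number as a block the same difference had a standard error of 0.19 and did not pass. A rise or fall of Cited2 smaller than about that interval could thus not be seen without the pairing. The second probe set, 1421267_a_at, lay near the array medians and went the other way. It had signals of 50.2, 85.8 and 121.6 in VhlhKO islets, against 82.6, 126.4 and 125.7 in control islets, a log2 difference of -0.44 (SE 0.54).

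The genotype contrast does not enter the differences between array numbers, so these could be tested for Cited2, although the test was chosen after its values were seen. In order of age the signals of 1452207_at at 18, 20 and 26 weeks were 7831.6, 4527 and 2952.8 in VhlhKO islets and 7178.1, 3898.3 and 2589.8 in control islets. The highest array was 2.65-fold above the lowest in VhlhKO islets and 2.77-fold in control islets, with the same order of the 3 numbers. Of all genes tested, 26.6% had the same order in both genotypes, and 1.9% did so with ranges at least as large as those of Cited2. Limma's F test of the number, in a fit with genotype and number, gave Cited2 an unadjusted p of 0.00122 and an adjusted p of 0.117, which does not pass. It called 24 of 11609 genes, or 0.207%. Age and the batch of islets change together with the number and cannot be told apart. The summed signal of acinar cell markers was also lowest on number 03 in both genotypes, at 8441 in VhlhKO islets and 79353 in control islets. Recorded sex was male for numbers 01 and 03 and female for the other number. The part of age, batch, sex or acinar cells in the Cited2 differences was not tested. None of the other 5 genes tested had the same order of numbers in both genotypes.

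**Figure D3:**
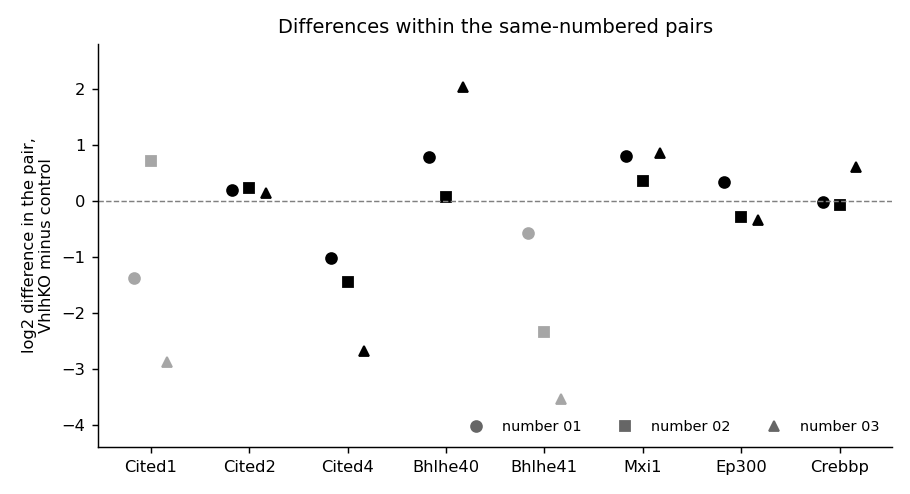
Log2 difference, VhlhKO minus control, within each same-numbered pair (y axis) for the brightest probe set of the 8 genes (x axis), with marker shapes for numbers 01, 02 and 03 and grey markers for the 2 genes too dim to be tested. Cited2 stays within 0.13 to 0.22 in the 3 pairs, and Bhlhe40 spans 0.06 to 2.03.

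Bhlhe41, the E-box repressor DEC2, and Cited1, a coactivator-binding protein known from developing tissues, were at the bottom of the arrays' range. Bhlhe41 probe set 1421099_at had signals of 20.9, 12.2 and 12.2 in VhlhKO islets, against 31.1, 61.4 and 141.6 in control islets. The knockout signals were the lower ones, but 1 array of the 6, control 03, reached the array median, so no direction or fold is read from them. The second Bhlhe41 probe set, 1457096_at, overlapped, with signals of 11, 25.9 and 10.2 in VhlhKO islets and 27.4, 18.3 and 28.6 in control islets. Cited1 probe set 1449031_at had signals of 7.3, 10.2 and 7.3 in VhlhKO islets, against 18.9, 6.2 and 53.9 in control islets. These also overlapped. No detection calls were used here, so values this far under the array median cannot be told from background.

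Ep300 and Crebbp, the coactivators that HIF and the CITED proteins share, showed no common shift. Ep300 had signals of 1904, 1460.7 and 1310.5 in VhlhKO islets, against 1518.5, 1790.6 and 1660.7 in control islets. Its log2 difference was -0.10 (95% interval -0.70 to 0.50), a value that turned to 0.01 without knockout 03. Crebbp has 4 probe sets. The brightest, 1435224_at, had signals of 3039, 4364.3 and 5418.3 in VhlhKO islets, against 3100, 4608.5 and 3552.3 in control islets. Its log2 difference was 0.17 (95% interval -0.51 to 0.84), and it turned to -0.02 without knockout 03.

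Of the other Crebbp probe sets, 1434633_at separated the genotypes. Its signals were 1827.7, 1387.1 and 1353 in VhlhKO islets, against 1091.2, 1009 and 1211.5 in control islets. Its log2 difference of 0.45 had an interval of -0.12 to 1.03 (95%). Probe set 1436983_at was even on average, with a log2 difference of 0.01, but held 1 knockout array far above the rest. That array, knockout 01, read 3064.9 beside 1292.1 and 1033.4 on the other knockouts, against 1372.1, 1679.9 and 1733.9 in control islets. The fourth, 1459804_at, was dim and had 1 control signal of 2.7, so its log2 difference of 1.70 carried an SE of 1.29.

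Over all 15 probe sets, 8 were higher and 7 lower in VhlhKO islets on average, and 5 had no overlap, 3 of them higher and 2 lower (1 of these the dim Bhlhe41 probe set). Over all 45037 probe sets, 4.05% had no overlap with the knockout higher and 3.58% with the knockout lower, and nothing is read from the members' count. Of the 5 genes with more than 1 probe set, 4 had probe sets that shared a direction, and Cited2 did not. Among the 6 genes tested, 4 had the same direction in all 3 pairs (Cited2, Cited4, Bhlhe40 and Mxi1), against 25.0% of all genes tested. For Cited4, Bhlhe40 and Mxi1 this follows from the lack of overlap, and nothing is read from the count.

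**Figure D4:**
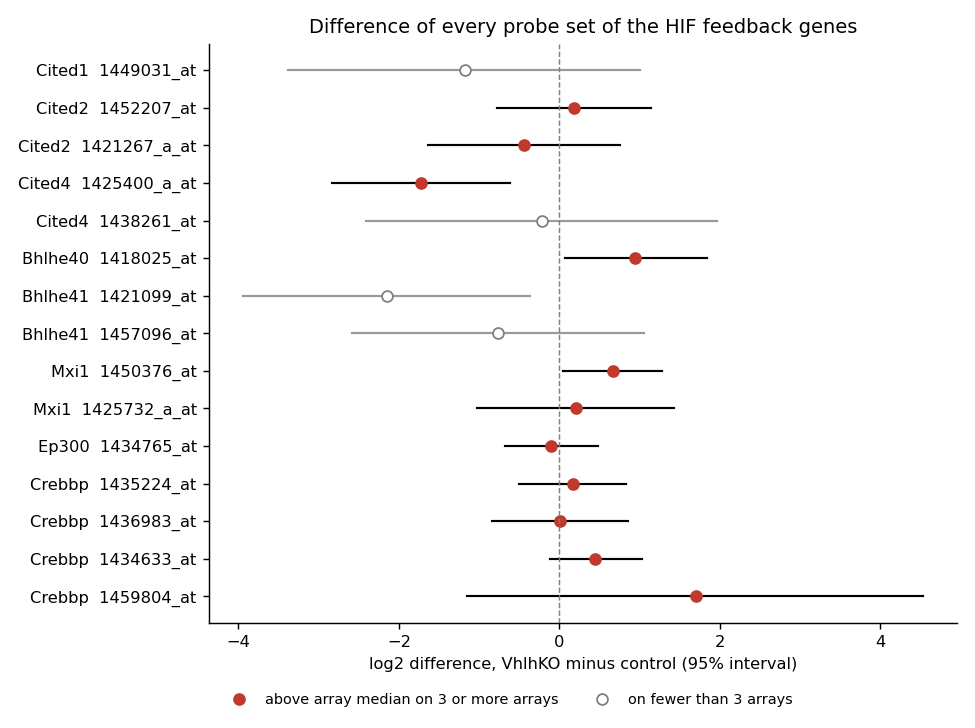
Log2 difference, VhlhKO minus control (x axis), with its 95% interval from limma fitted over all 45037 probe sets, for each of the 15 probe sets (y axis). Filled red points were above the array median on at least 3 arrays and open points on fewer. The intervals of Cited4 1425400_a_at, Bhlhe40 and Mxi1 1450376_at lie to 1 side of 0, as does that of the dim Bhlhe41 1421099_at.

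Markers of other cells of the islet preparation differed between the same arrays, though 0 of them passed limma's adjusted threshold. At an unadjusted p under 0.05 limma listed 1 endothelial marker, 5 of fibroblasts, stellate cells and pericytes, 2 neural and 1 of ducts. That level was reached by 2.58% of all genes tested. Of all genes tested, 50% were higher on average in VhlhKO islets. Endothelial markers were higher on average in 9 of 9 tested genes (10 listed), with a summed signal of 11381 to 15769 in VhlhKO islets and 8897 to 9492 in control islets. The endothelial marker too dim to test, Tie1, was lower on average (-0.23). Fibroblast, stellate and pericyte markers were higher in 11 of 11 (12 listed), with sums of 7197 to 25892 in VhlhKO islets and 4815 to 8602 in control islets. On knockout arrays 01, 02 and 03 the fibroblast sums were 7197, 12615 and 25892. Of the knockout arrays, 03 read lowest for Cited4 and Mxi1 and highest for Bhlhe40, the last with 886.1 beside 860.6 on knockout 01. Neural and Schwann cell markers were higher in 6 of 6 (8 listed), with sums of 1223 to 3154 in VhlhKO islets and 780 to 1625 in control islets. Acinar markers were lower on average in 9 of 9 (12 listed), but their sum was lower in VhlhKO islets only in the pair numbered 03. On arrays 01, 02 and 03 the sums were 339871, 436846 and 8441 in VhlhKO islets. In control islets they were 311227, 351510 and 79353, so number 03 was the lowest in both genotypes. Markers of alpha, delta and PP cells were higher in 7 of 7 tested genes, those of leukocytes in 4 of 6 and those of ducts in 2 of 5, and their sums overlapped between genotypes. No marker signal was at 0. Whole islets do not tell fewer cells of a type from less RNA per cell, and the part of these cells in the values of Cited4, Bhlhe40 and Mxi1 was not tested.

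Genes around these regulators gave the wider setting. HIF subunits, the Vhl gene and the oxygen-sensing hydroxylases, 10 genes all tested, had 0 that passed limma's adjusted threshold and a median log2 difference of 0.06. At an unadjusted p under 0.05 limma listed 3, all higher, against 2.58% of all genes tested (4 with the replicate block, against 5.03%). The 3 were the prolyl hydroxylases Egln3 (3.66, SE 0.46) and Egln1 (0.95, SE 0.28) and Epas1, the HIF-2 alpha gene (0.69, SE 0.29). Egln1 differed by the same 0.95 as Bhlhe40. Like Bhlhe40 and Mxi1, 4 of the 10 genes (Egln1, Egln2, Egln3 and Epas1) had no overlap with the knockout higher, against 3.98% of all genes tested. The list was chosen with earlier results known, so nothing is read from these counts. A list of 8 direct HIF targets (Ldha, Pgk1, Slc2a1, Egln3, Bnip3, Ak4, Adm and Pdk1), chosen with earlier results known, had a median of 2.49. Of these, 1 passed, the adenylate kinase gene Ak4 (3 passed with the array number as a block). All 8 had no overlap with the knockout higher, against 3.98% of all genes tested, and nothing is read from that count. Ak4, Egln3 and Adm had every control signal under the array median and passed the filter through their knockout arrays alone. Their differences thus rest on dim control values. The smallest difference among the 8 targets was 1.54, for the mitophagy receptor gene Bnip3, beside 0.95 for Bhlhe40. Both lists were chosen with earlier results known, so nothing is read from that comparison.

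Among the other genes of the MAX network no separation of the genotypes like that of Mxi1 was seen. Of 12 genes 11 were tested, 0 passed, 0 had an unadjusted p under 0.05 (1 with the replicate block) and none was without overlap. Their median log2 difference was -0.16. Max itself had signals of 273.6, 482.1 and 182.2 in VhlhKO islets, against 296.1, 601.8 and 173.5 in control islets, and a log2 difference of -0.12 (SE 0.52). The other MAX-binding repressors of the family also overlapped, with log2 differences of -0.25 for Mxd1, -0.23 for Mxd3 and 0.08 for Mxd4. Myc, which MXI1 opposes, differed by -0.45 (SE 0.52), and the glucose-sensing factor gene Mlxipl by -0.63 (SE 0.39).

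Clock genes, among which Bhlhe40 and Bhlhe41 act, were mixed. Of 17 listed, 16 had a probe set and 15 were tested. Limma passed 0, with 0 at an unadjusted p under 0.05, and the median log2 difference was 0.15, with 9 above 0 and 6 below. The genes of lowest p were Tef (-0.45, SE 0.27), Nfil3 (0.91, SE 0.61), Per1 (0.49, SE 0.34) and Clock (-0.41, SE 0.39). Of the 15 tested, 1 had no overlap, where 6.75% of all genes tested had none, so nothing is read from that count. That gene was Tef, which encodes a PAR bZIP activator. Its signals were 1458.8, 1190.3 and 1112.4 in VhlhKO islets, against 2128.6, 1477.6 and 1580.5 in control islets. The labels do not state the time of day at which islets were isolated.

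Coactivators related to p300 and CBP and partners of the CITED proteins also passed in 0 of 14 tested genes of 20 listed, with 0 at an unadjusted p under 0.05 and a median log2 difference of -0.06. The lowest p belonged to Smad3, a transducer of transforming growth factor beta signals (0.68, SE 0.33), Crtc3, a CREB coactivator (0.54, SE 0.36), Pparg, a nuclear receptor (-0.77, SE 0.59), and Kat2a, an acetyltransferase (-0.39, SE 0.35). The 4 AP-2 genes Tfap2a, Tfap2b, Tfap2c and Tfap2e, whose products CITED proteins can coactivate, were too dim to be tested.

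**Figure D5:**
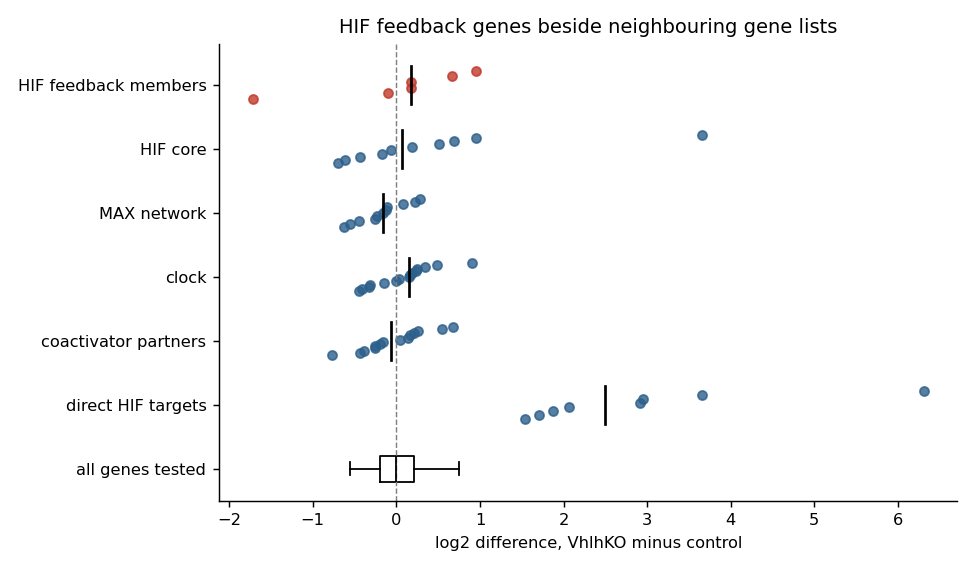
Log2 difference, VhlhKO minus control (x axis), of each tested gene in the HIF feedback list (red) and 5 neighbouring lists (blue), with a black bar at each median, and a box for all 11609 genes tested (quartiles, whiskers from the 5th to the 95th percentile). The 8 direct HIF targets, chosen with earlier results known, lie between 1.54 and 6.31, and the HIF feedback genes lie between -1.72 and 0.95.

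Genes with the pattern most like the 2 members of largest difference were ranked by the root mean square difference of log2 signals over the 6 arrays, each gene centred on its control mean. For Cited4 the nearest were Amacr (0.548), Slc5a10 (0.556) and Rassf10 (0.573), with log2 differences of -1.32, -1.34 and -1.03. For Bhlhe40 the nearest were Pcdhb10 (0.228), Coro1a (0.244) and Kank3 (0.249), with log2 differences of 1.05, 0.85 and 1.17. Pcdhb10, Coro1a and Kank3 shared with Bhlhe40 their lowest signal on control 03. These genes were picked for their likeness to Bhlhe40, so the shared low follows in part from the choice. Coro1a is best known from leukocytes and Kank3 from endothelial cells. On control arrays 01, 02 and 03 the leukocyte marker sums were 4402, 3953 and 6062, and the endothelial sums 9241, 8897 and 9492. The part of these cells in the pattern was not tested.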

How the data were processed

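The authors deposited 1 table of linear signal intensities, 1 per probe set and array. The submitters' processing notes name GCOS 1.4 and MAS5. Per the labels' protocols, total RNA was copied with a repeated-cycle cDNA synthesis kit and labelled by in vitro transcription with biotin. The 2% trimmed mean was 500.003 on every array, and precision is limited by there being 3 arrays a group. Of 45101 probe sets 64 controls were left out, and 34945 of the rest had 1 gene symbol in the platform annotation, 932 several and 9160 none. Entrez identifiers matched 34741 of these to a RefSeq table (GRCm38.p6), which changed 0 symbols.

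The probe set with the highest mean log2 signal stood for a gene, without _x_at probe sets unless there was no other. The genotypes were compared on log2 signals with limma 3.58.1 in R 4.3.3 (intensity trend, Benjamini-Hochberg adjustment over 11609 genes, threshold 0.05), tested on simulated data. Differences are VhlhKO minus control, and errors of differences are moderated standard errors. Values of second probe sets and of the genes too dim to test come from the same fit over all 45037 probe sets. P-values measure the spread between batches of islets, which within a genotype also differ in age and recorded sex. In the fits that include the array number they measure the spread left after genotype and number.

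The members, lists and tests were chosen with earlier results of these data known. The rule for named genes took every probe set of the 8 genes, up to 4 genes of lowest p per neighbouring list, and 3 genes of most similar pattern for each of 2 members. Max, Mxd3, Mxd4, Mnt, Egln2, Bnip3, Tie1 and the AP-2 genes were named outside it, after their values were seen.

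Both genotypes carry the numbers 01, 02 and 03. Deviations from group means over all genes tested correlated at 0.15, 0.42 and 0.43 within these pairs. Each was above 0.1, the limit set for treating the numbers as pairs. The mismatched pair of knockout 02 with control 01 reached 0.14, so the correlation does not set the pair numbered 01 apart from a mismatch.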

Additional observations from a re-analysis of the deposited data

How the results depend on the processing

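Of the 6 genes tested, Cited4, Bhlhe40 and Mxi1 kept their direction under every alternative in which they could be tested. For genes without overlap this is forced when arrays are left out or a constant is added to each signal. The same holds when only the filter, trend, block or set of probe sets fitted changes. Quantile normalization and median centring could have turned the direction. They gave -1.73 and -1.75 for Cited4, 0.96 and 0.92 for Bhlhe40, and 0.68 and 0.64 for Mxi1. Averaging probe sets could have turned Mxi1, which stayed at 0.44, but not Bhlhe40. Cited4 ranged from -2.07 to -1.21 over 13 alternatives, Bhlhe40 from 0.42 to 1.4 over 18 and Mxi1 from 0.44 to 0.83 over 18. Cited4 was not tested under the stricter filter, with probe sets averaged per gene, or without any 1 of the control arrays, since too few arrays then lay above the median. Cited2 turned to -0.13 with its probe sets averaged, to -0.19 without VhlhKO replicate 3 and to -0.17 without control replicate 1. Ep300 turned to 0.01 without VhlhKO replicate 3 and to 0.02 without both arrays numbered 03, and Crebbp to -0.02 and -0.05 there. With 1 array left out, Cited2 ranged from -0.19 to 0.57, Ep300 from -0.26 to 0.01 and Crebbp from -0.02 to 0.39. The count of members past the threshold was 0 in every alternative, as were those of the 4 neighbouring lists (HIF core, MAX network, clock, coactivator partners). The count of members without overlap was 1 of 5 with probe sets averaged per gene, where Bhlhe40 was the one, and 2 to 4 with 1 array left out. With arrays centred on their medians it was 2, Cited4 and Mxi1. The median log2 difference over the members was 0.44 with probe sets averaged per gene, and ranged from -0.01 to 0.49 with 1 array left out, reaching 0.45 without VhlhKO replicate 1 and 0.49 without control replicate 3.

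Over all genes, 2 passed in the fit as reported. The count was 1 with the stricter filter, 4 with 50 added to each signal, 4 with every probe set on its own and 6 with the replicate block. It ranged from 0 to 5 with 1 array left out, and was 0, 1 and 0 without both arrays numbered 01, 02 and 03. The block changed no call among the members (0 passed), and Cited4, Bhlhe40 and Mxi1 were again the 3 at an unadjusted p under 0.05. That count was 1 with median centring, 1 with probe sets averaged, 2 without the intensity trend, 2 with the stricter filter, 4 of 8 with no filter, 0 to 2 with 1 array left out and 1 to 2 without both arrays of a number. The adjusted p of the differences between numbers in Cited2 was 0.104 with quantile normalization and 0.0991 with 50 added, both added after the values were seen. The causes of these shifts were not tested. Signals under the array median limit what can be said of Cited1, Bhlhe41 and the knockout level of Cited4.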
